A study of Mus musculus with 4 samples.

Results

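Interferon-stimulated genes were measured by RNA-seq in pancreatic tissue lying beside Panc02 tumours, a transplantable mouse pancreatic ductal adenocarcinoma line, in 4 libraries. The wild-type (WT) group had 2 libraries and the group labelled CRFR1-KO, from mice with a conditional knockout of the corticotropin-releasing factor receptor CRFR1, had 2. All 4 libraries came from tumour-bearing mice, and the sources used here do not give age, sex, strain, Cre driver or the number of animals behind a library. Whether each library is a separate animal is not stated either, and p-values reflect only the scatter among these libraries, possibly technical. The set comprised 41 genes chosen by symbol as products of interferon signalling, and each of the 41 symbols matched a gene among the 55401 in the table. Of these, 40 passed the filter on low counts and were tested with 15131 genes in all. The exception was Oas3, an oligoadenylate synthetase gene, which had 13 counts in WT 1, 4 in CRFR1-KO 1 and 0 in both WT 2 and CRFR1-KO 2.

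Interferons are cytokines of antiviral and tumour immunity. Type I and type III interferons act through receptor-bound JAK kinases on a STAT and IRF9 complex that binds interferon-stimulated response elements, whereas interferon gamma acts mainly through STAT dimers that bind gamma-activated sites. The induced genes encode sensors of viral nucleic acid, proteins that block translation or membrane fusion, a ubiquitin-like modifier and GTPases that attack pathogen vacuoles, and most are also transcribed at a low level in resting tissue.

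The total count was between 63495457 and 71203640 per library, and 3 counts corresponded to 0.0363 to 0.048 CPM (counts scaled to library depth, with library sizes adjusted by the trimmed mean of M values). Acinar markers summed to between 315500 and 430300 CPM and 0 of the 12 were at 0. The targeted gene Crhr1 (ENSMUSG00000018634) had 0 counts in all 4 libraries, which leaves no check of the genotype labels. WT 1 stood apart in several marker sums, of which 2 are given here and others further below. Its summed fibroblast markers were at 486.4 CPM against 161.2 to 229.9 CPM in the other libraries, and its summed islet markers at 39.92 CPM against 235.1 to 292.1 CPM. The fibroblast excess lay mainly in collagen genes, such as Col3a1 (207.4 CPM in WT 1 against 59.3 in WT 2). Of the 8 fibroblast markers 5 were highest in WT 1. Dcn (65.7 against 88.4 CPM) and Pdgfra (8.55 against 11.8 CPM) were lower in WT 1 than in WT 2, and Dpt was highest in CRFR1-KO 2. Fold changes of the members described are therefore given with and without WT 1.

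To show the element through which such genes respond, promoters were taken from RefSeq (GRCm38.p6), as windows of 300 bases that end 50 bases after the RefSeq gene start. The table held 30 of the 41 genes. The core of the interferon-stimulated response element was searched as GAAANNGAAA, with N any base, on both strands and with overlapping matches counted. It was found for 17 of the 30 genes (56.7%), against 3.99% of the 27025 genes in the table. The gamma-activated site, searched as TTCNNNGAA, which reads the same on both strands, was found for 9 (30.0%), against 9.55% of all genes. A match is a run of letters and was not tested as a binding site. The 4 windows printed here, each the 150 bases before a gene start and read 5′ to 3′ in the direction of the gene, hold the core in genes with contrasting values below. Ifit1 was lower in both CRFR1-KO libraries, Irgm1 was highest in WT 1, Gbp2 was highest in CRFR1-KO 1 and Gbp3 was higher in both CRFR1-KO libraries. Capitals mark the core, which appears in either orientation.
Ifit1 (chr19:34640739-34640888, plus strand): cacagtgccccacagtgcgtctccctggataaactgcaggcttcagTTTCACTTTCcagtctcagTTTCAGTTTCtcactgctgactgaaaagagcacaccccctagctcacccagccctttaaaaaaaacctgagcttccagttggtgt
Irgm1 (chr11:48871421-48871570, minus strand): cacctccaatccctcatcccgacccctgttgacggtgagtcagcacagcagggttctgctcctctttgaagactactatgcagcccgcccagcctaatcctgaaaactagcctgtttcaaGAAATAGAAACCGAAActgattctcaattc
Gbp2 (chr3:142620513-142620662, plus strand): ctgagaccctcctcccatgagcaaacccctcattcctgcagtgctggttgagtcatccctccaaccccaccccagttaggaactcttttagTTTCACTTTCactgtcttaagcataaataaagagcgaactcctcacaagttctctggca
Gbp3 (chr3:142559894-142560043, plus strand): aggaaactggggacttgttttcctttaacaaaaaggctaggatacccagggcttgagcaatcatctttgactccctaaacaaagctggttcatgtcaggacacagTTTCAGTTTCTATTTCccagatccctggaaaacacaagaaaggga
Ifit1 held 2 separate cores, whose first bases lay 104 and 85 bases before the gene start. In Gbp3 the 2 cores overlapped and began 45 and 39 bases before the start, and in Irgm1 they overlapped and began 30 and 24 bases before it. Gbp2 held 1 core at 59 bases. Among the tested genes with a promoter in the table, the 16 with a core had a median log2 fold change of -0.10 and 11 were lower in CRFR1-KO, while the 13 without one had a median of -0.22 and 9 were lower. WT 1 was the highest library for 12 of the 16 and for 12 of the 13.

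No interferon-stimulated gene passed the threshold between CRFR1-KO and WT in the edgeR quasi-likelihood test with Benjamini-Hochberg adjustment. The count was 0 of 40 tested members (adjusted p = 0.9999 for each), against 4 of all 15131 tested genes (0.0264%). At an unadjusted edgeR p under 0.05 there were 0 members in either direction, against 735 of all 15131 tested genes. Of all tested genes 3.15% were lower at that level. DESeq2 called 0 members against 0.383% of all genes, and limma-voom called 0 members and 0 of all genes. At an unadjusted p under 0.05 DESeq2 had 3 members (Ifi27, Ifitm3 and Oas2) and limma-voom had 1 (Ifi27). The share of all genes at that level was not counted for either test. In direction, 28 of the 40 were measured lower in CRFR1-KO and 12 higher, with a median log2 fold change of -0.22, beside 50.8% lower and a median of -0.0063 over all tested genes. Scaled on library totals alone, 32 of the 40 members and 66.6% of all tested genes were lower. The lean of the members rested on WT 1. Without that library 12 of 40 were lower and the median was 0.34, beside 48.9% lower and a median of 0.012 over all genes in that fit. Of the members, 16 had turned from lower to higher. Without WT 2, 35 of 41 were lower and the median was -0.66, beside 49.2% lower and a median of 0.0068 over all genes in that fit. In these fits the lone WT library is assumed to vary like the CRFR1-KO libraries.

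The larger difference lay between the 2 WT libraries. WT 1 was the highest of the 4 libraries for 32 of the 40 tested genes (80%), whereas it was the highest for 26.1% of all tested genes. Between WT 1 and WT 2 the median log2 ratio was 0.94 over the members and 0.02 over all genes, with ratios taken after adding 0.5 counts. WT 1 was above WT 2 for 38 of 40 members, against 7772 of all 15131 tested genes. It was more than 2-fold above WT 2 for 19 members (47.5%), against 9.30% of all genes. Among the 24 members with a mean of at least 1 CPM, 9 (37.5%) were more than 2-fold higher in WT 1, against 4.01% of the 10895 genes at that level. The CRFR1-KO libraries lay closer to each other, with a median log2 ratio of -0.25 and 28 of 40 members higher in CRFR1-KO 2. Over all 15131 tested genes that median was 0.0015, and 7591 were higher in CRFR1-KO 1. Against WT 2 alone the mean of the CRFR1-KO libraries was higher for 28 of 40 members (median log2 ratio 0.32). Over all 15131 tested genes it was higher for 7344 (median -0.018). WT 2 was the lowest library for 19 members, CRFR1-KO 1 for 14, CRFR1-KO 2 for 5 and WT 1 for 2. In the same order the counts over all 15131 tested genes were 4303, 3674, 3440 and 3714. These ratios compare single libraries and have no test.

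**Figure D1:**
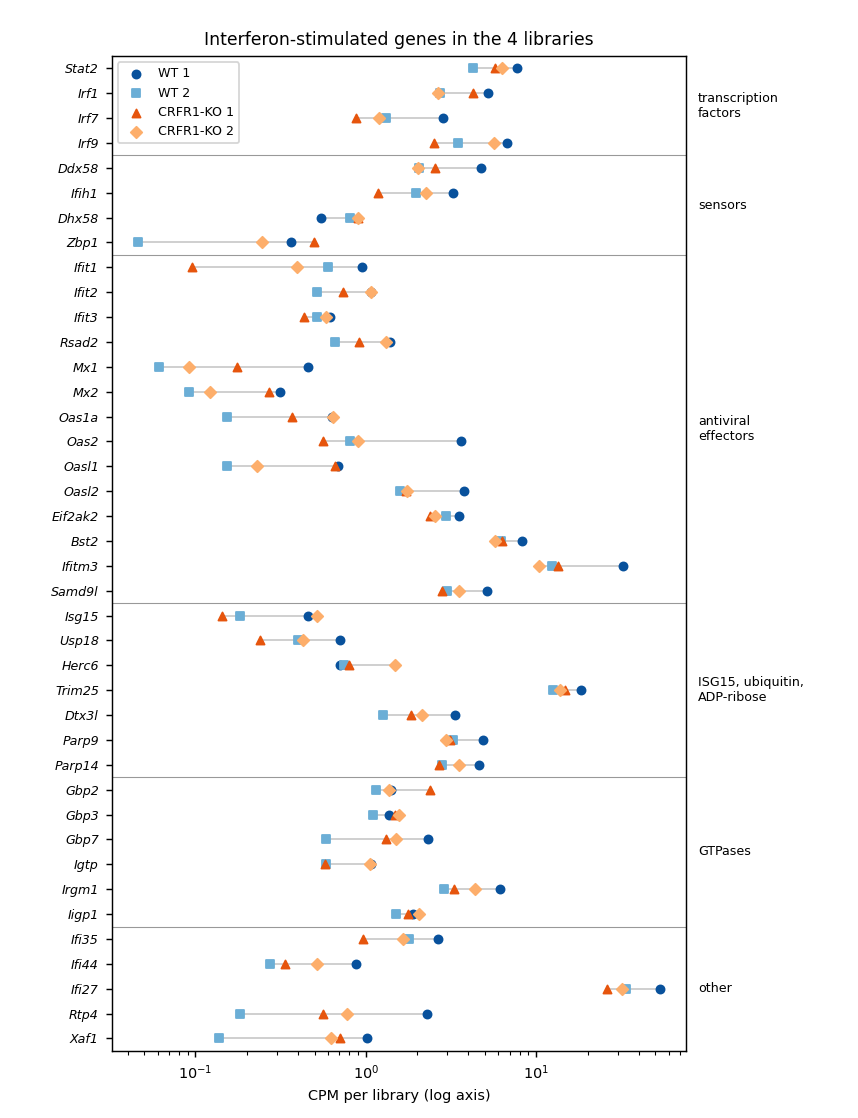
Level of the 40 tested interferon-stimulated genes in each library, in CPM on a log axis, grouped by role, with 1 point per library and a grey line from the lowest to the highest. WT 1 (dark blue circles) is the rightmost point for 32 of 40 genes, and WT 2 (light blue squares) is the leftmost for 19.

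**Figure D2:**
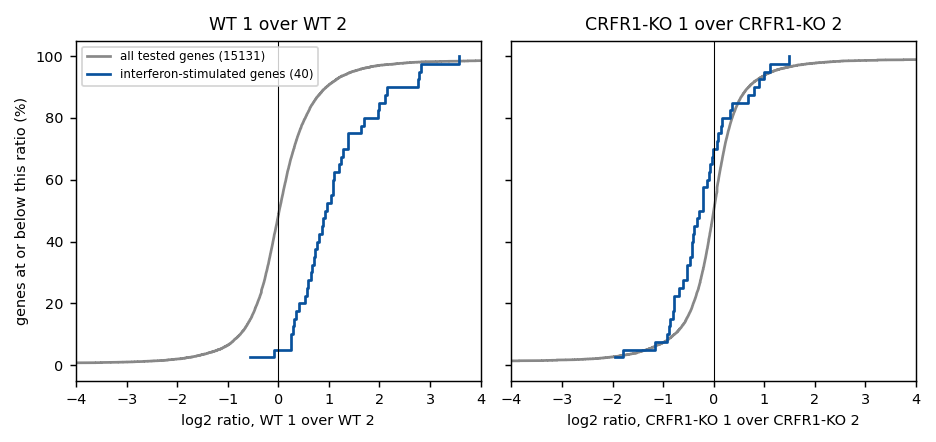
Cumulative distribution of the log2 ratio between the 2 libraries of a genotype, for the 40 tested interferon-stimulated genes (blue) and all 15131 tested genes (grey), with the vertical axis in percent of genes. The members' curve for WT 1 over WT 2 is shifted to the right (median 0.94 against 0.02), and that for CRFR1-KO 1 over CRFR1-KO 2 lies slightly to the left (median -0.25 against 0.0015).

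The groups did not overlap for 9 members. Both CRFR1-KO libraries were below both WT libraries for 6 (Irf7, Ifit1, Eif2ak2, Parp9, Ifi35 and Ifi27), and 16.9% of all tested genes had that order, so the members' share of 6 in 40 lay near the background. The opposite order held for 3 (Dhx58, Herc6 and Gbp3), against 16.6% of all tested genes. The remaining 31 overlapped. The gene models of Irf9, Herc6, Parp14, Gbp7, Igtp and Rtp4 share exons with other models, and their levels are uncertain to that extent.

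The transcription factors that carry the signal were 4 genes, all highest in WT 1. Irf7, Irf9 and Irf1 were measured lower in CRFR1-KO, while Stat2 had a log2 fold change of only -0.0017 (SE 0.30). Irf7 (ENSMUSG00000025498, chr7:141262706-141266481 in GRCm38, GENCODE M21), which encodes the factor that amplifies type I interferon transcription, was at 2.83 CPM for WT 1, 1.31 for WT 2, 0.880 for CRFR1-KO 1 and 1.19 for CRFR1-KO 2. Its groups did not overlap, but the gap to the CRFR1-KO libraries was small for WT 2 and wide for WT 1. The log2 fold change was -1.0 (SE 0.46), and -0.34 without WT 1. Irf9, the DNA-binding subunit of the type I complex, was at 6.73 and 3.45 CPM in the WT pair and 2.53 and 5.67 CPM in the CRFR1-KO pair, giving -0.31 ± 0.44 (SE) on the log2 scale, so each genotype had 1 high and 1 low library. Irf1, a factor induced mainly by interferon gamma, was at 5.21 and 2.73 CPM in the WT pair and 4.26 and 2.64 CPM in the CRFR1-KO pair, giving -0.21 ± 0.38 (SE) on the log2 scale. Stat2, the STAT specific to type I and type III signalling, was at 7.72 and 4.25 CPM in the WT pair and 5.70 and 6.28 CPM in the CRFR1-KO pair. Both CRFR1-KO libraries of Stat2 lay between the WT libraries, and the group means were 5.98 ± 2.45 and 5.99 ± 0.41 CPM (SD, n = 2 libraries each). Without WT 1, Irf9, Irf1 and Stat2 stood at 0.25, 0.34 and 0.50 on the log2 scale, all turned in direction. Irf9 and Stat2 also turned without CRFR1-KO 1 (0.16 and 0.07) and Irf1 without CRFR1-KO 2 (0.11).

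Sensors of viral nucleic acid were mixed, with 2 of 4 lower. Ddx58, which encodes the RNA sensor RIG-I, was at 4.72 CPM in WT 1 and between 2.03 and 2.56 CPM in the other 3 libraries (log2 fold change -0.57 ± 0.41, SE). WT 1 alone was high, and the fold change was 0.16 without it. Ifih1, encoding the long-RNA sensor of the same family, was at 3.27 and 1.97 CPM in the WT pair and 1.18 and 2.25 CPM in the CRFR1-KO pair, giving -0.61 ± 0.42 (SE) on the log2 scale and -0.20 without WT 1. Dhx58, the third member of the family and a regulator of the other two, ran the other way, at 0.544 and 0.810 CPM in the WT pair and 0.896 and 0.901 CPM in the CRFR1-KO pair. Its log2 fold change was 0.41 (SE 0.50), or 0.15 without WT 1, and it was 1 of 2 tested members with their lowest level in WT 1. Zbp1, a sensor of Z-form nucleic acid that triggers necroptosis, rested on few counts, namely 30 for WT 1, 3 for WT 2, 31 for CRFR1-KO 1 and 16 for CRFR1-KO 2. At 3 counts the WT 2 library was at the floor, and its fold change is not read further.

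Antiviral effectors were the widest group, with 10 of 14 tested genes lower and WT 1 highest for 13 of 14. Ifitm3 (ENSMUSG00000025492, chr7:141009586-141010770), which encodes a membrane protein that hinders viral fusion, had the highest level per kilobase of the set, a mean of 25.2 CPM per kb over the 4 libraries. It was at 32.3 CPM for WT 1, 12.4 for WT 2, 13.3 for CRFR1-KO 1 and 10.3 for CRFR1-KO 2. WT 2 lay inside the range of the CRFR1-KO libraries, and the group means were 22.4 ± 14.1 and 11.8 ± 2.1 CPM (SD, n = 2 libraries each). With all libraries the log2 fold change was -0.92 (SE 0.41), and it was -1.45 without WT 2 and -0.07 without WT 1. Oas2 (ENSMUSG00000032690, chr5:120730333-120749853), an oligoadenylate synthetase that activates RNase L, had the same shape, at 3.63 CPM in WT 1 against 0.810, 0.560 and 0.901 CPM in WT 2, CRFR1-KO 1 and CRFR1-KO 2. Its unadjusted edgeR p of 0.0530 was the smallest of the set (log2 fold change -1.61 ± 0.69, SE), and the fold change was -0.15 without WT 1.

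Ifit1, which binds viral RNA lacking the host cap and whose promoter is printed above, was at 0.944 CPM for WT 1, 0.596 for WT 2, 0.0960 for CRFR1-KO 1 and 0.397 for CRFR1-KO 2, from 78, 39, 6 and 26 counts. Both CRFR1-KO libraries were below both WT libraries, and the low end rested on the 6 counts of CRFR1-KO 1. The log2 fold change of Ifit1 was -1.63 (SE 0.82) and stayed at -1.26 without WT 1, the lowest of the set in each of these fits. Its neighbours on chromosome 19, Ifit2 and Ifit3, encode proteins that bind it in a complex. They did not share its order, with log2 fold changes of 0.17 (SE 0.55) and -0.17 (SE 0.61), or 0.80 and -0.04 without WT 1. Eif2ak2, which encodes the kinase PKR that halts translation on sensing double-stranded RNA, was at 3.51 and 2.96 CPM in the WT pair and 2.37 and 2.54 CPM in the CRFR1-KO pair (log2 fold change -0.40 ± 0.26, SE, and -0.27 without WT 1). The other tested effectors ranged from -0.96 (Mx1, SE 1.20) to 0.36 (Oas1a, SE 0.85), and these 2 stood at 1.11 and 1.71 without WT 1. Mx1, which encodes a dynamin-like GTPase against viral nucleocapsids, and its relative Mx2, annotated as a polymorphic pseudogene, had 4 and 6 counts in WT 2, and Oas1a and Oasl1 had 10 each, so counting error alone was large for them. Bst2, which tethers budding virus and had the third highest level per kilobase at 7.31 CPM per kb, was at 8.24 and 6.17 CPM in the WT pair and 6.29 and 5.70 CPM in the CRFR1-KO pair, giving -0.27 ± 0.21 (SE) on the log2 scale and -0.04 without WT 1. Samd9l, Oasl2 and Rsad2 were at -0.37, -0.63 and 0.12 on the log2 scale. Without WT 1 they stood at 0.07, 0.12 and 0.76, so Samd9l and Oasl2 turned direction.

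Genes of ISG15 conjugation, ubiquitin ligation and ADP-ribosylation were lower in 5 of 7 cases. Isg15 itself, the ubiquitin-like modifier, was scarce, with 38 and 12 counts in the WT pair and 9 and 34 in the CRFR1-KO pair, or a mean of 0.432 CPM per kb (log2 fold change 0.04 ± 0.96, SE). Usp18, which removes ISG15 and brakes the type I receptor, was at 0.702 and 0.397 CPM in the WT pair and 0.240 and 0.428 CPM in the CRFR1-KO pair, giving -0.72 ± 0.73 (SE) on the log2 scale. Herc6, the mouse ligase that attaches ISG15, was at 0.702 and 0.749 CPM in the WT pair and 0.800 and 1.48 CPM in the CRFR1-KO pair, giving 0.65 ± 0.50 (SE) on the log2 scale. The groups of Herc6 did not overlap, yet 1 CRFR1-KO library alone was clearly higher. Trim25, a ubiquitin ligase that activates RIG-I, had the highest level per kilobase of this group (2.58 CPM per kb) and was at 18.2 and 12.6 CPM in the WT pair and 14.7 and 13.8 CPM in the CRFR1-KO pair, giving -0.11 ± 0.21 (SE) on the log2 scale. Parp9 and Dtx3l, which form a ubiquitin ligase complex and share a promoter region on chromosome 16, stood at -0.42 (SE 0.28) and -0.22 (SE 0.46). Parp9 was at 4.88 and 3.24 CPM in the WT pair and 3.12 and 2.96 CPM in the CRFR1-KO pair, so WT 2 exceeded the CRFR1-KO libraries by little. Parp14, a mono-ADP-ribosyltransferase of the same locus, was at 4.58 and 2.80 CPM in the WT pair and 2.70 and 3.54 CPM in the CRFR1-KO pair, giving -0.24 ± 0.32 (SE) on the log2 scale. Without WT 1, Trim25, Parp14 and Dtx3l turned to 0.18, 0.16 and 0.64 on the log2 scale. Usp18 and Parp9 then stood at -0.25 and -0.09, and Isg15 and Herc6 at 0.85 and 0.61.

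Of the interferon-inducible GTPases 3 of 6 were lower, with a median log2 fold change of 0.07 and 0 of 6 lower without WT 1. No test of the difference between groups of members was made. Gbp2, a guanylate-binding protein gene, was at 1.40 and 1.15 CPM in the WT pair and 2.38 and 1.36 CPM in the CRFR1-KO pair, giving 0.55 ± 0.40 (SE) on the log2 scale. A single CRFR1-KO library was high. Gbp3, its neighbour on chromosome 3, was at 1.37 and 1.10 CPM in the WT pair and 1.49 and 1.56 CPM in the CRFR1-KO pair, giving 0.30 ± 0.36 (SE) on the log2 scale. Irgm1, an immunity-related GTPase that acts in autophagy and vacuole control, had the highest level per kilobase of the group (0.716 CPM per kb). It was at 6.10 CPM for WT 1, 2.87 for WT 2, 3.31 for CRFR1-KO 1 and 4.37 for CRFR1-KO 2, so both CRFR1-KO libraries lay between the WT libraries (log2 fold change -0.23 ± 0.37, SE, and 0.42 without WT 1). Iigp1, an effector GTPase of the same family, was at 1.90 and 1.5 CPM in the WT pair and 1.78 and 2.05 CPM in the CRFR1-KO pair, giving 0.17 ± 0.33 (SE) on the log2 scale. Gbp7 and Igtp were at -0.04 (SE 0.61) and -0.03 (SE 0.57). Without WT 1, Gbp2, Gbp3, Iigp1 and Igtp stood at 0.71, 0.47, 0.35 and 0.49, and Gbp7 at 1.28 with an edgeR adjusted p of 0.559.

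Among the other induced genes, 4 of 5 were lower and WT 1 was highest for all 5. Ifi27 (ENSMUSG00000064215, chr12:103434211-103440239), which encodes a small hydrophobic mitochondrial protein, had the highest level in CPM, at 53.4 for WT 1, 33.5 for WT 2, 26.1 for CRFR1-KO 1 and 31.9 for CRFR1-KO 2. The CRFR1-KO libraries were below both WT libraries, by a narrow margin for WT 2. Group means were 43.4 ± 14.1 and 29.0 ± 4.1 CPM (SD, n = 2 libraries each), with a log2 fold change of -0.58 (SE 0.25), and -0.20 without WT 1. Ifi35, a leucine zipper protein gene, was at 2.66 and 1.80 CPM in the WT pair and 0.960 and 1.65 CPM in the CRFR1-KO pair, giving -0.77 ± 0.40 (SE) on the log2 scale. It was among the 12 members lower both with and without WT 1 (-0.46 without it). Rtp4, a Golgi chaperone gene, had the widest gap between the WT libraries of all tested members, which read 2.27 CPM (WT 1) and 0.183 CPM (WT 2), with 0.560 and 0.779 CPM in CRFR1-KO between them. Its log2 fold change was -0.88 (SE 0.97) with all libraries and 1.86 without WT 1. Ifi44 was at 0.871 and 0.275 CPM in the WT pair and 0.336 and 0.519 CPM in the CRFR1-KO pair, or -0.43 (SE 0.77) on the log2 scale and 0.64 without WT 1. Xaf1, a pro-apoptotic gene, stood at 0.19 (SE 0.88) on the log2 scale with all libraries and at 2.26 without WT 1. In the latter edgeR fit its adjusted p was 0.565.

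**Figure D3:**
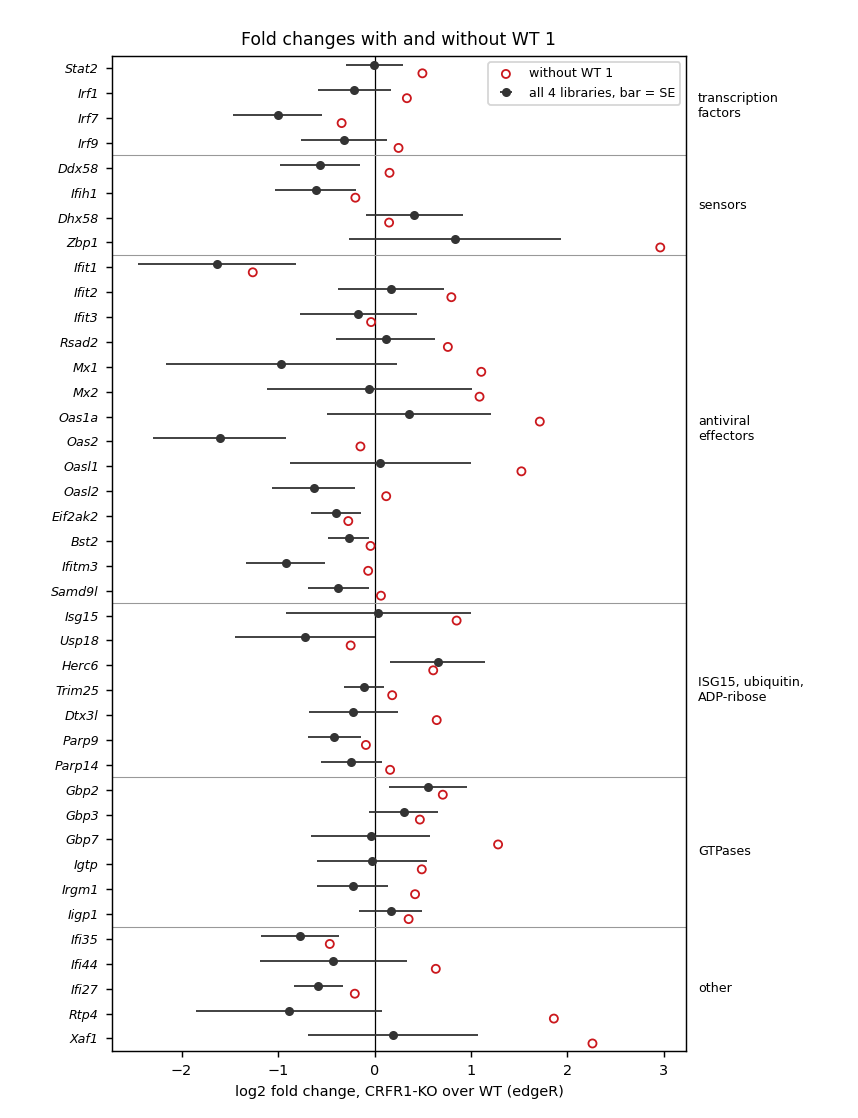
Log2 fold change of CRFR1-KO over WT for the 40 tested members, with all 4 libraries (black points, bars of 1 SE) and without WT 1 (red circles), grouped by role. Black points lie left of 0 for 28 genes and red circles for 12.

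Summed over the 41 genes, the level was 201.5 CPM for WT 1 against 111.2 for WT 2, 112.4 for CRFR1-KO 1 and 122.6 for CRFR1-KO 2. Ifi27 and Ifitm3 made up between 34.5% and 42.6% of this, and without them the sums were 115.7, 65.3, 72.9 and 80.4 CPM in the same order. Either way WT 1 alone was high, and both CRFR1-KO libraries were at or above WT 2. Summed markers of macrophages, fibroblasts, all leukocytes, duct cells, neutrophils and T and NK cells were also highest in WT 1. Other lists were not. B cell markers summed to 1.85 CPM in WT 1 against 8.14 in WT 2, of which Jchain was 0.0847 and 6.46 CPM. Conventional dendritic cell markers summed to 5.31 against 7.3 CPM, and mast cell markers to 11.8 against 13.8 CPM. Single genes made up most of these sums, namely Zbtb46 (5.04 and 6.78 CPM) and Kit (11.4 and 13.7 CPM). The mast cell markers Cma1, Mcpt4, Tpsb2 and Ms4a2 were at 0 in all libraries. Endothelial markers were highest in CRFR1-KO 2 (52.9 against 46.6 CPM in WT 1). Acinar, islet and plasmacytoid dendritic cell sums were lowest in WT 1. Macrophage markers were highest in WT 1 for 10 of 10 genes, with 0 of 10 at 0 in all libraries, and summed to 129.7 and 94.0 CPM in the WT pair and 46.9 and 73.7 CPM in the CRFR1-KO pair. Of the 8 fibroblast markers 5 were highest in WT 1, 0 were at 0, and the sums were 486.4 and 229.9 CPM in the WT pair and 161.2 and 182.0 CPM in the CRFR1-KO pair. The 4 pan-leukocyte markers summed to 10.6 and 8.82 CPM in the WT pair and 4.40 and 7.65 CPM in the CRFR1-KO pair. Among them Laptm5 was at 6.39 and 5.39 CPM in the WT pair and 2.27 and 3.28 CPM in the CRFR1-KO pair. Ptprc was instead highest in CRFR1-KO 2, at 3.41 CPM against 2.55 and 2.78 CPM in the WT pair. Coro1a in CRFR1-KO 2 (0.901 CPM) was above WT 2 (0.535 CPM). For the CRFR1-KO libraries over WT 2, the log2 ratio was -0.64 for the macrophage sum and 0.08 for the interferon-stimulated sum. The largest macrophage term was Lyz2, at 47.8 CPM in WT 2 against 20.9 and 32.1 CPM in the CRFR1-KO pair. Adgre1 (2.67 against 2.44 CPM) and Mrc1 (6.95 against 6.69 CPM) were higher in CRFR1-KO 2 than in WT 2. Cd14 was higher in both CRFR1-KO libraries (0.944 and 1.25 against 0.565 CPM). The remaining macrophage markers were below WT 2 in both CRFR1-KO libraries. For plasmacytoid dendritic cells, the main makers of type I interferon, Klra17 and Cd300c were at 0 in all 4 libraries, Siglech had 0 counts in both WT libraries, 8 in CRFR1-KO 1 and 4 in CRFR1-KO 2, and Ccr9 had 7 in WT 2, 4 in CRFR1-KO 2 and 0 in the other libraries. The T and NK cell list, with Cd3d at 0, summed to 0.592 to 1.86 CPM. The part of these cells in the members' levels was not tested, and in bulk tissue fewer cells of a type and less RNA per cell cannot be told apart.

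**Figure D4:**
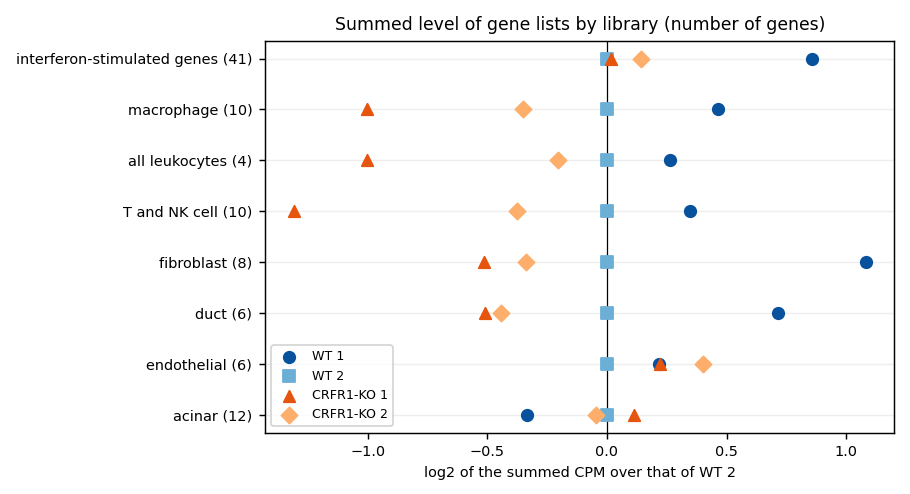
Summed CPM of the 41 interferon-stimulated genes and of 7 marker lists in each library, as log2 of the ratio to WT 2, with the number of genes in brackets. For the interferon-stimulated genes the CRFR1-KO libraries sit close to WT 2 and WT 1 is at 0.86, while for macrophage and leukocyte markers both CRFR1-KO libraries lie to the left of WT 2.

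Of 98 further genes of the pathway, 78 were tested, of which 60 (76.9%) were lower and 18 higher, beside 50.8% lower over all tested genes. There were 0 past the threshold in edgeR, DESeq2 or limma-voom and 5 at an unadjusted edgeR p under 0.05, all lower (Socs3, Tlr7, Irf8, Slfn2 and Ifitm1), against 0.0264% of all tested genes called in edgeR and 3.15% lower at that unadjusted level. Without WT 1, 35 of 77 were lower, beside 48.9% of all genes in that fit. Of the interferon genes themselves only 11 were looked up, and none of these was detected. The 11 listed (Ifnb1, 5 Ifna genes, Ifnk, Ifne, Ifng, Ifnl2 and Ifnl3) had 0 counts in all 4 libraries, a depth at which 0 counts leave room for levels up to 0.0363 CPM (WT 1) or 0.048 CPM (CRFR1-KO 1). Among receptors and kinases 5 of 9 were lower, and 0 reached an unadjusted p under 0.05. Ifnar1 and Ifnar2, the type I receptor subunits, were at 7.29 and 5.01 and at 4.89 and 5.70 CPM in WT, and at 5.38 and 6.02 and at 4.24 and 4.80 CPM in CRFR1-KO. The gamma receptor genes Ifngr1 and Ifngr2 had log2 fold changes of -0.09 (SE 0.20) and 0.06 (SE 0.21). Those of the type III receptor genes Ifnlr1 and Il10rb were -0.18 (SE 0.43) and 0.15 (SE 0.18). The models of Ifnar2 and Il10rb share exons, and summed with the models they overlap both stood at 0.07, against -0.23 for Ifnar2 alone, so the direction of Ifnar2 turned. The kinase gene Jak1 was at 34.4 and 27.0 CPM in the WT pair and 40.5 and 37.9 CPM in the CRFR1-KO pair, giving 0.35 ± 0.19 (SE) on the log2 scale, with both CRFR1-KO libraries higher.

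Among the signal inhibitors, Socs3, which blocks JAK kinases, was at 5.70 CPM for WT 1, 2.90 for WT 2, 2.48 for CRFR1-KO 1 and 2.38 for CRFR1-KO 2, giving -0.83 ± 0.35 (SE) on the log2 scale. WT 1 alone was high, and the value without it was -0.25. Ptpn2, a STAT phosphatase gene, stood at 0.14 (SE 0.34). In the group of interferon-inducing sensors and adaptors, 9 of 13 (69.2%) were lower, beside the same 50.8% of all genes. Tlr7, the endosomal receptor for single-stranded RNA, was at 2.27 and 1.08 CPM in the WT pair and 0.464 and 0.107 CPM in the CRFR1-KO pair, giving -2.56 ± 0.75 (SE) on the log2 scale with an edgeR adjusted p of 0.872. CRFR1-KO 2 held 7 counts of it. Irf8, a factor of myeloid cells, was at 2.04 and 1.56 CPM in the WT pair and 0.848 and 0.978 CPM in the CRFR1-KO pair, giving -0.98 ± 0.38 (SE) on the log2 scale. Macrophages express both genes, and the summed macrophage markers were lower in the same libraries (46.9 and 73.7 against 129.7 and 94.0 CPM). Their part in these values was not tested. Of 52 tested further interferon-induced genes 43 (82.7%, against 50.8% of all genes) were lower, with Slfn2 at 1.63 and 1.04 CPM in the WT pair and 0.384 and 0.290 CPM in the CRFR1-KO pair, giving -1.98 ± 0.53 (SE) on the log2 scale with an edgeR adjusted p of 0.801. Ifitm1, a relative of Ifitm3, was at 1.39 and 1.24 CPM in the WT pair and 0.464 and 0.489 CPM in the CRFR1-KO pair, giving -1.46 ± 0.46 (SE) on the log2 scale, and so kept WT 2 with WT 1, unlike Ifitm3. Without WT 1, 26 of these 52 were lower. Slfn2, Ifitm1, Tlr7 and Irf8 were also lower without WT 1, at -1.62, -1.37, -1.92 and -0.77 on the log2 scale, while Socs3 shrank to the -0.25 given above.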

How the data were processed

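RNA captured on oligo(dT) beads was sequenced from 2 WT and 2 CRFR1-KO libraries with dUTP second-strand marking, per the labels' protocols. The deposited table held whole-number counts per Ensembl gene, not normalized. The submitters' processing notes name FastQC, DESeq2 and edgeR without roles, and neither they nor the labels name an aligner, counting program, strand setting or build. Columns were matched to libraries by library name, with symbols, exon lengths and shared exons from GENCODE M21 (GRCm38). Each member symbol matched 1 gene. Irf9, Herc6, Parp14, Gbp7, Igtp and Rtp4 share exons with other models. Near-identical copies in the Ifit, Oas, Ifitm, Gbp and Ifna families make single levels uncertain. A count of 4 was more frequent than 3 or 5 (913 against 349 and 242 genes in WT 1), so what a deposited count stands for is unsettled, and floors cover counting error only.

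Counts were tested across all genes by the two-sided quasi-likelihood test of edgeR 4.0.16 in R 4.3.3, after filterByExpr and scaling by trimmed mean of M values, with genotype as sole term and Benjamini-Hochberg adjustment over 15131 genes at a threshold of 0.05. The script was tested on simulated data. SE was derived from the F statistic. DESeq2 1.42.0, limma-voom (limma 3.58.1), other scalings and filters, counts divided by 4, summed exon-sharing models, leaving out each library and a replicate block were alternatives. A 2 against 2 permutation test cannot pass 0.05, so none was used. Members and lists were chosen with earlier results of these data known. The members given library by library were those with the 4 smallest p in each role group and its highest level per kilobase. Bst2, Isg15 and Oas3 were given in addition. Of the other pathway genes, the receptor genes and those with the 2 smallest p per group were described. Others were named after their values were seen.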

Additional observations from a re-analysis of the deposited data

How the results depend on the processing

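With all 4 libraries kept, no scaling, filter or test turned the direction of the members' median, which lay between -0.41 and -0.16, and 0 members passed the threshold in each of these settings. Scaling on library totals moved the median of all tested genes to -0.133, and the members' to -0.41 with 32 of 40 lower, beside 66.6% of all tested genes lower. The number of all genes past the threshold was 58 in DESeq2, 0 in limma-voom and 0 with exon-sharing models summed, against 4. Same-numbered libraries did not deviate together (r = -0.0646 over 15131 genes). With 2 libraries per group this is a single comparison and cannot exclude a weak pairing. What the replicate numbers stand for is not stated. With the replicate block 7 of all genes passed, 0 members passed and 26 of 40 were lower. Leaving out 1 library at a time gave 0 to 69 calls over all genes, 0 to 1 among the members, 12 to 35 members lower, a members' median between -0.662 and 0.345, and 35 to 69 pathway genes lower, with the lowest counts of lower genes and the positive median without WT 1. Under the same omissions the log2 fold changes ranged from -1 to 0.249 for Irf9, -0.592 to 0.336 for Irf1, -0.362 to 0.497 for Stat2, -1.03 to 0.156 for Ddx58, -0.549 to 0.162 for Parp14, -0.347 to 0.183 for Trim25, -0.662 to 0.42 for Irgm1, -1.76 to 1.86 for Rtp4 and -1.02 to 0.635 for Ifi44. Stat2, at -0.0017, was at 0.0299 in limma-voom and 0.0577 with the replicate block. The cause of these changes was not tested. Summing exon-sharing models changed no member's log2 fold change by more than 0.132, but turned that of the pathway gene Ifnar2 from -0.23 to 0.07. Members under 10 counts in a library (Mx1, Mx2, Zbp1, Ifit1, Isg15, Xaf1 and Oas3) are limited by counting error.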
